A study of Mus musculus with 14 samples.

Results

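Sh3bp2, Cfp and Arid3b are 3 genes of the 9969 in a table of unique molecular identifier (UMI) counts from germinal centre (GC) B cells of the mouse. They were chosen by symbol, as genes with a higher scaled UMI level in light zone (LZ) than in dark zone (DZ) libraries, and all 3 passed the filter on low counts that kept 7999 genes for testing. The higher level in LZ is therefore the basis of the choice and is described here without a test. What the choice did not use directly is the comparison of SykY317F with WT cells within a zone, although the WT and LZ libraries behind the choice also enter it.

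The cells came from chimeric C57BL/6 mice whose mixture was 50% SykY317F and 50% WT. The hosts were given NP-KLH, a hapten bound to a carrier protein, and GC B cells of both zones were sorted from popliteal lymph nodes 14 days later. SykY317F cells carry a tyrosine to phenylalanine change in the kinase Syk, at the site where the ubiquitin ligase Cbl is known to bind, and both zones were sequenced from them and from WT cells with unaltered Syk. There were 3 SykY317F LZ, 3 SykY317F DZ, 4 WT LZ and 4 WT DZ libraries. The labels give no age or sex and do not say which libraries came from separate mice, so each p-value measures the spread between these libraries.

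The DZ of a germinal centre is where B cells proliferate and acquire mutations in their antibody genes, and in the LZ they are selected for antigen binding. There the B cell receptor signals through Syk and T cells give help. Sh3bp2 encodes an adaptor with PH and SH2 domains that binds Syk, Vav proteins and phospholipase C-gamma, is turned over through tankyrase and the ubiquitin ligase Rnf146, and is mutated in human cherubism. Cfp encodes properdin, the plasma protein that stabilises the C3 convertase of the alternative complement pathway and is known chiefly as a product of myeloid cells. Arid3b encodes a DNA-binding protein with an AT-rich interaction domain and is a close relative of Arid3a (Bright), which binds the immunoglobulin heavy chain locus and works with Btk.

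The stretches upstream of the start of each gene are shown because the 3 genes were chosen for 1 pattern while their starts differ in composition. The 3 symbols matched 5 windows of 300 bases in the RefSeq promoter table for GRCm38.p6, which runs from 250 bases before to 50 bases after a start. One exon-free stretch per gene is given, 5′ to 3′ on the strand of the gene, with matches to any searched motif in capitals. The Sh3bp2 stretch is chr5:34543115-34543364 on the plus strand and lies inside 2 longer annotated transcripts. The Cfp stretch is chrX:20931556-20931805 on the minus strand. The Arid3b stretch is chr9:57836794-57837029 on the minus strand, where 236 bases hold no annotated exon.
Sh3bp2: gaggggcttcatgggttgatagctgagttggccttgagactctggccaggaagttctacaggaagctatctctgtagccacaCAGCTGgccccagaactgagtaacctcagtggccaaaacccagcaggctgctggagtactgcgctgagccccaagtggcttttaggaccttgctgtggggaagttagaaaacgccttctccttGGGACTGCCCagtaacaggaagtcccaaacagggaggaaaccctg
Cfp: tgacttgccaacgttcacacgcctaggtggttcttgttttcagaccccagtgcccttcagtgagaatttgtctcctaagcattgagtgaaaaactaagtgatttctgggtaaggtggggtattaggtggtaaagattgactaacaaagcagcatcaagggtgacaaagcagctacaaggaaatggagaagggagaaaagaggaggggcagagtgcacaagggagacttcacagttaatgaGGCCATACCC
Arid3b: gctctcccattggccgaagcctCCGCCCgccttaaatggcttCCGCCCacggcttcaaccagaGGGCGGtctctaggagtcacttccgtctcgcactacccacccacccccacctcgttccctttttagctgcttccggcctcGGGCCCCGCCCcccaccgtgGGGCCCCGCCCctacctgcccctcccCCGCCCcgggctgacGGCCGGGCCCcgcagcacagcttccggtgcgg

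The Arid3b start shown had the highest GC content of the 5 member windows, 72.3% over its window, higher than 93.5% of the 32817 windows, beside 57% and 56.7% for the windows of Sh3bp2, 49% for Cfp and a median of 52.7% over all windows. The ratio of observed to expected CpG was 0.681 at this Arid3b start and 0.757 at the other, 0.123 at the Sh3bp2 start shown and 0.459 at the other, 0.113 at Cfp and 0.383 at the median window. Of 10 motifs searched on both strands, the loose NF-kB pattern, GGG and CC with any 5 bases between them, was in each of the 5 member windows and in 50.8% of all windows. GGGCGG, the Sp1 box, was in 35.6% of all windows and had 7 matches in the Arid3b window around the stretch shown, some of which overlap NF-kB matches, and 0 in the Cfp window. CAGCTG, an E-box of E2A, stood in the Sh3bp2 stretch, in the Arid3b window downstream of the bases shown, and in 16.3% of all windows. GAGGAAG, an ETS and PU.1 pattern found in 13.6% of all windows, matched the other Sh3bp2 window. No member window held ATTTGCAT, the octamer of B cell promoters (1.74% of all windows), or TGACGTCA, the cyclic AMP response element (1.79%). Nor did any hold the NFAT core GGAAAA (23.3% of all windows) or the TATA box TATAAA (13.6%). The AP-1 pattern, TGA and TCA with any 1 base between them (7.81%), and the EBF pattern, TCCC and GGGA with any 2 bases between them (0.905%), were absent too. The matches are descriptions of letters and were not tested for binding.

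By GENCODE M21 on GRCm38, Sh3bp2 spans chr5:34525838-34563641 on the plus strand with 8 transcripts, of which 5 are protein coding and the longest has 13 exons. Its introns hold the small nuclear RNA gene Gm22847 on the same strand, with 0 exon bases shared. Cfp spans chrX:20925454-20931555 on the minus strand with 2 transcripts, 1 of them coding, up to 9 exons and no overlapping gene. Arid3b spans chr9:57790353-57836793 on the minus strand with 10 transcripts, 6 of them coding, and up to 9 exons. It shares 360 exon bases with the antisense gene Gm17231, and since the strand setting of the counting is not given in the sources used here, UMIs from those bases cannot be assigned to 1 of the 2 genes.

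UMI totals ran from 149641 to 379125 in SykY317F LZ, 381954 to 1413310 in SykY317F DZ, 499443 to 1600902 in WT LZ and 747948 to 1767898 in WT DZ libraries. A gene with 3 UMIs stood at 8.95 to 18.8 CPM (UMIs per 1000000 in the library, scaled by TMM factors) in SykY317F LZ libraries and at 1.73 to 8.29 CPM in the other 11 libraries, so SykY317F LZ values are the least precise. No pair of the 91 library pairs was identical. The 8 LZ markers summed to 3156 to 3349 CPM in SykY317F LZ, 1858 to 2381 CPM in SykY317F DZ, 2564 to 3358 CPM in WT LZ and 1536 to 1879 CPM in WT DZ, without overlap between zones. The 7 DZ markers summed to 898 to 1035 CPM in SykY317F LZ, 1193 to 1595 CPM in SykY317F DZ, 743 to 1061 CPM in WT LZ and 1832 to 2012 CPM in WT DZ, while Cxcr4, 1 of the 7, averaged 325 CPM in SykY317F LZ and 276 CPM in SykY317F DZ, against its label, with 485 CPM in SykY317F LZ replicate 2 and 245 CPM in each of the other 2 of that group. The 7 B cell markers were present in every library, with sums of 7103 to 11261 CPM. The Syk change is a point change, so the Syk level does not check the genotype labels. It averaged 414 ± 27.0 CPM in SykY317F LZ, 547 ± 68.9 CPM in SykY317F DZ, 422 ± 61.4 CPM in WT LZ and 517 ± 57.6 CPM in WT DZ (SD, n = 3, 3, 4 and 4).

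Sh3bp2, the Syk-binding adaptor, was measured by 9 to 139 UMIs per library. In SykY317F LZ replicates 1, 2 and 4 it stood at 74.6, 102 and 56.5 CPM (25, 18 and 9 UMIs). In SykY317F DZ replicates 1, 2 and 4 it stood at 43.6, 86.1 and 33.2 CPM (60, 128 and 12 UMIs). SykY317F DZ replicate 2 was the high library of its group and lay within the range of the LZ libraries, so the zones overlapped in SykY317F. In WT LZ replicates 1, 2, 3 and 5 Sh3bp2 stood at 151, 86.0, 59.5 and 80.3 CPM (138, 87, 31 and 139 UMIs). In WT DZ replicates 2, 3, 4 and 5 it stood at 45.3, 27.6, 20.5 and 25.1 CPM (35, 37, 23 and 40 UMIs). The WT zones did not overlap, and WT LZ replicate 1 was the highest of the 14 libraries. Since the libraries hold RNA of many cells, fewer cells with the transcript and less transcript per cell cannot be told apart, for this gene and those below.

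Group means of Sh3bp2 were 77.6 ± 22.7 CPM in SykY317F LZ, 54.3 ± 28.0 CPM in SykY317F DZ, 94.3 ± 39.7 CPM in WT LZ and 29.6 ± 10.9 CPM in WT DZ (SD, n = 3, 3, 4 and 4). The means ordered as WT LZ, SykY317F LZ, SykY317F DZ and WT DZ from high to low, and each neighbouring pair in that order overlapped. The fitted LZ over DZ difference was 0.46 ± 0.43 (log2, SE) in SykY317F and 1.70 ± 0.34 in WT. Without SykY317F DZ replicate 2 the SykY317F value was 0.97, and without SykY317F LZ replicate 2 it was 0.21. The lowest count, 9 UMIs in SykY317F LZ replicate 4, has a 95% Poisson interval of 25.8 to 107 CPM, which covers counting error only, as do the other counting intervals.

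Cfp, the gene of properdin, had 13 to 136 UMIs per library. SykY317F LZ replicates 1, 2 and 4 had 107, 73.4 and 107 CPM (36, 13 and 17 UMIs). SykY317F DZ replicates 1, 2 and 4 had 35.6, 40.4 and 58.1 CPM (49, 60 and 21 UMIs). The SykY317F zones did not overlap. WT LZ replicates 1, 2, 3 and 5 had 136, 98.9, 76.8 and 78.5 CPM (124, 100, 40 and 136 UMIs). WT DZ replicates 2, 3, 4 and 5 had 33.7, 31.3, 28.5 and 56.5 CPM (26, 42, 32 and 90 UMIs). The WT zones did not overlap either, and WT DZ replicate 5 was the high library of its group.

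Cfp averaged 95.8 ± 19.4 CPM in SykY317F LZ, 44.7 ± 11.8 CPM in SykY317F DZ, 97.5 ± 27.5 CPM in WT LZ and 37.5 ± 12.9 CPM in WT DZ (SD, n = 3, 3, 4 and 4). The LZ groups of both genotypes overlapped, as did the DZ groups, and the gap in the order of levels lay between the zones. The fitted LZ over DZ difference was 1.16 ± 0.36 (log2, SE) in SykY317F and 1.37 ± 0.28 in WT.

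Arid3b, the AT-rich interaction domain factor, had 39 to 453 UMIs per library, which makes its values the best measured of the 3. SykY317F LZ replicates 1, 2 and 4 had 382, 259.7 and 301 CPM (128, 46 and 48 UMIs). SykY317F DZ replicates 1, 2 and 4 had 149, 177 and 108 CPM (205, 263 and 39 UMIs). SykY317F DZ replicate 4 was the lowest of all 14 libraries and SykY317F LZ replicate 1 the highest. WT LZ replicates 1, 2, 3 and 5 had 279, 335, 228 and 262 CPM (254, 339, 119 and 453 UMIs). WT DZ replicates 2, 3, 4 and 5 had 189, 178, 166 and 149 CPM (146, 238, 187 and 237 UMIs). The zones did not overlap in either genotype, and WT DZ had the narrowest spread of the 4 groups, with a coefficient of variation of 10.03%.

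Arid3b averaged 314 ± 62.2 CPM in SykY317F LZ, 145 ± 34.8 CPM in SykY317F DZ, 276 ± 44.6 CPM in WT LZ and 170.4 ± 17.1 CPM in WT DZ (SD, n = 3, 3, 4 and 4). In the order SykY317F LZ, WT LZ, WT DZ and SykY317F DZ from high to low, the LZ groups overlapped each other and the DZ groups overlapped each other. The fitted LZ over DZ difference was 1.11 ± 0.25 (log2, SE) in SykY317F and 0.70 ± 0.21 in WT.

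**Figure D1:**
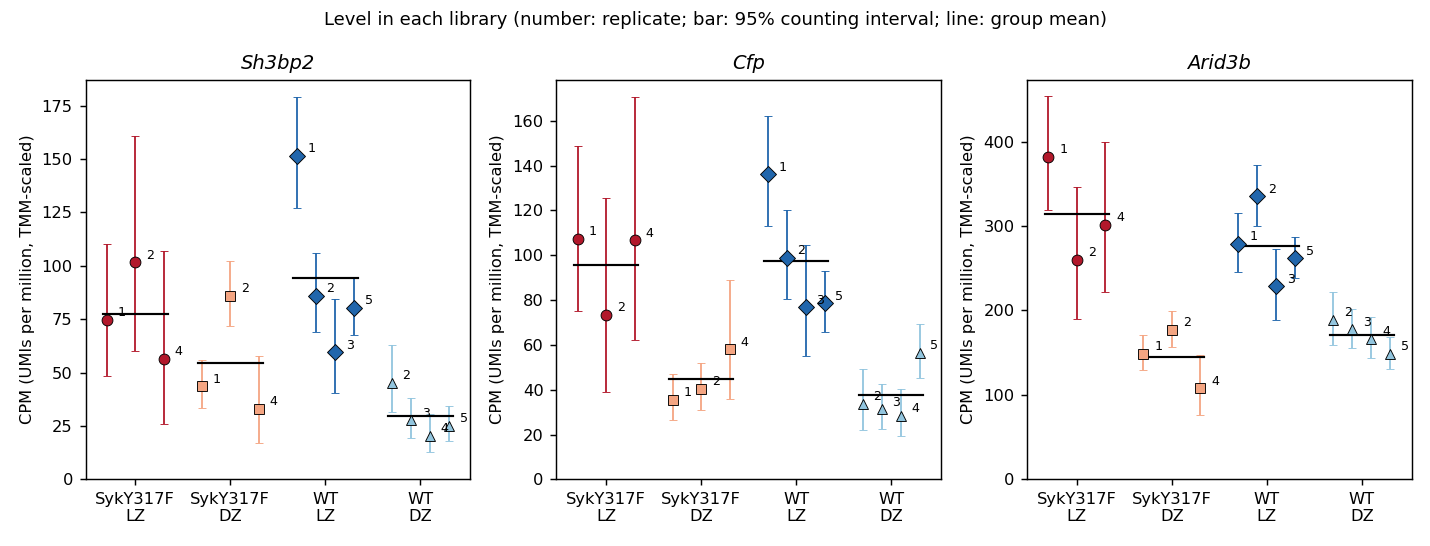
Levels of Sh3bp2, Cfp and Arid3b in CPM (vertical axes) in each of the 14 libraries, by group; numbers give the replicate, bars the 95% Poisson counting interval and black lines the group mean. Every LZ point of Cfp and of Arid3b lies above every DZ point, while for Sh3bp2 SykY317F DZ replicate 2, at 86.1 CPM, lies among the LZ points.

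For Cfp and Arid3b each of the 7 LZ libraries lay above each of the 7 DZ libraries, as it did for 21 of the 7999 genes tested (0.263%). For Sh3bp2 this held within WT, where 2.89% of genes had the LZ range above the DZ range, and not within SykY317F, where 6.56% did. These shares are background to a pattern for which the genes were chosen and nothing is read from them. LZ to DZ ratios of same-numbered libraries are given as a description of the same chosen pattern. The numbers were not taken to pair libraries. The ratios for Sh3bp2 were 1.71, 1.18 and 1.70 in SykY317F (replicates 1, 2 and 4) and 1.90, 2.16 and 3.19 in WT (replicates 2, 3 and 5). For Cfp they were 3.02, 1.82 and 1.84 in SykY317F and 2.94, 2.45 and 1.39 in WT. For Arid3b they were 2.57, 1.47 and 2.79 in SykY317F and 1.77, 1.29 and 1.76 in WT.

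Between genotypes in the LZ, none of the 3 genes passed the test, and SykY317F and WT libraries overlapped for each. Sh3bp2 differed by -0.29 ± 0.40 (log2, SykY317F over WT, SE; 95% interval -1.12 to 0.54; adjusted p = 0.863 by edgeR's quasi-likelihood test over 7999 genes). Cfp differed by -0.02 ± 0.32 (interval -0.69 to 0.65; edgeR adjusted p = 0.995), and its sign depended on the settings. Arid3b differed by 0.20 ± 0.23 (interval -0.29 to 0.68; edgeR adjusted p = 0.83). No gene of the 7999 was called in this comparison (0%), while 785 had an unadjusted p under 0.05 in edgeR, DESeq2 called 37 and limma voom 0. Without WT LZ replicate 1 the Sh3bp2 value was 0.01, and without SykY317F LZ replicate 1 the Arid3b value was -0.00144.

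In the DZ, the Sh3bp2 fit was higher in SykY317F than in WT by 0.95 ± 0.37 (log2, SE; 95% interval 0.18 to 1.72), with an unadjusted p of 0.0177 that did not survive adjustment over 7999 genes (edgeR adjusted p = 0.9999). The libraries overlapped, with SykY317F DZ at 33.2 to 86.1 CPM and WT DZ at 20.5 to 45.3 CPM. SykY317F DZ replicate 2 carried much of that value, which was 0.43 without it. In that library Cd83, an LZ marker, stood at 581 CPM, against 352 and 285 CPM in SykY317F DZ replicates 1 and 4, and the 8 LZ markers summed to 2381 CPM, against 1904 and 1858 CPM. Also highest there were Cd72 (601 CPM against 466 and 370 CPM), Nfkbia (753 CPM against 544 and 730 CPM) and Cd86 (51.1 CPM against 40.7 and 24.9 CPM). Cd40 and Traf1 went the other way, with Cd40 at 166 CPM against 202 and 180 CPM, and Traf1 at 97.5 CPM against 163 and 135 CPM. Icam1 and Bcl2a1b lay between their values in the other libraries of the group. The part of these markers in the Sh3bp2 level was not tested. Cfp differed by 0.19 ± 0.31 (interval -0.47 to 0.84) and Arid3b by -0.22 ± 0.23 (interval -0.69 to 0.26), each with an edgeR adjusted p of 0.9999. No gene was called in the DZ (0%), 305 had an unadjusted p under 0.05 in edgeR, and DESeq2 called 2 and limma voom 4.

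The zone effect in SykY317F minus that in WT was -1.24 ± 0.54 for Sh3bp2 (log2, SE; interval -2.37 to -0.11; unadjusted p = 0.0333, edgeR adjusted p = 0.999). It was -0.73 without SykY317F DZ replicate 2. For Cfp it was -0.20 ± 0.45 (interval -1.14 to 0.73) and for Arid3b 0.41 ± 0.33 (interval -0.27 to 1.09), with edgeR adjusted p = 0.999 for both. No gene was called for this difference (0%), with 384 at an unadjusted p under 0.05 in edgeR and 0 called by DESeq2 or limma voom. This difference contains the WT zone contrast and is not independent of the choice of the genes.

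**Figure D2:**
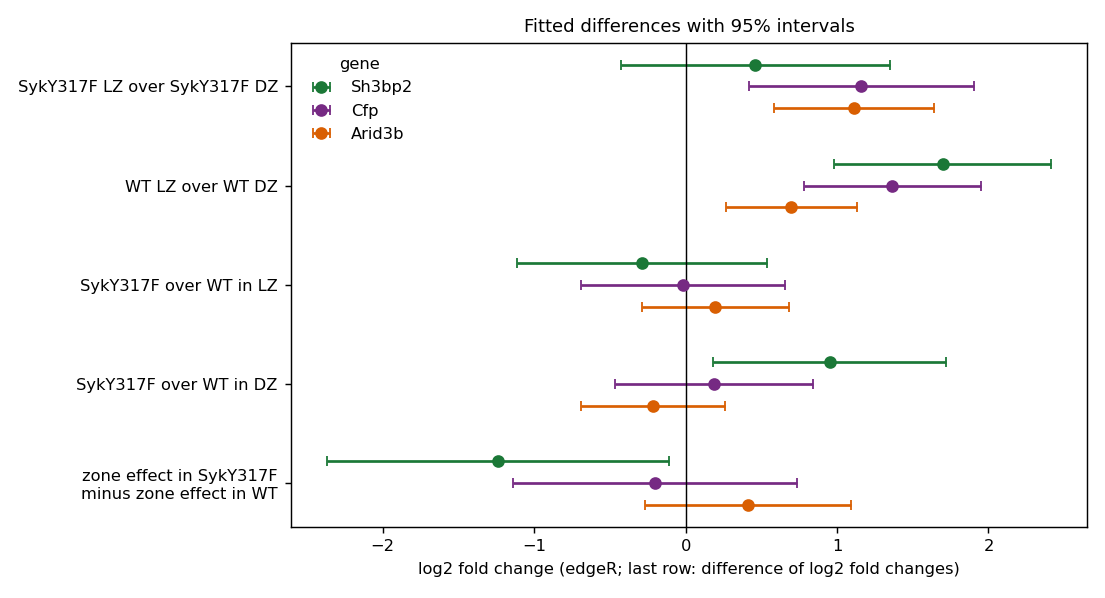
Fitted log2 fold changes of Sh3bp2, Cfp and Arid3b (points) with 95% intervals (bars) in the 5 contrasts; the horizontal axis is log2 and 0 marks equal levels. The upper 2 contrasts, LZ over DZ, are those for which the genes were chosen, and in the lower 3 the Sh3bp2 intervals for the DZ (0.18 to 1.72) and for the difference of zone effects (-2.37 to -0.11) leave out 0 without passing the adjusted test.

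In the authors' deposited table, the log2 difference of SykY317F LZ against WT LZ was -0.27 for Sh3bp2, 0.00118 for Cfp and 0.22 for Arid3b, with adjusted p-values of 0.918, 0.999 and 0.86 in that table. For SykY317F DZ against WT DZ the authors' deposited table gave 0.96, 0.19 and -0.19, with adjusted p-values of 0.369, 0.998 and 0.994.

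Genes listed as markers of other cells were detected in the libraries, and their part in the members' levels was not tested. The sums below run over several genes each and are not set against the level of a single member. Of 14 myeloid markers 12 were in the table, and they summed to 440 to 709 CPM in SykY317F LZ, 471 to 862 CPM in SykY317F DZ, 290 to 447 CPM in WT LZ and 344 to 724 CPM in WT DZ, with Itgax at 0 in SykY317F LZ. LZ and DZ sums of the 12 overlapped in both genotypes. Cybb alone stood at 305 to 583 CPM in SykY317F LZ, 200 to 303 CPM in SykY317F DZ and 124 to 327 CPM in WT. Of the 9 myeloid markers tested, 2 were above 0 and 7 below in SykY317F LZ over SykY317F DZ (median log2 -2.16, against -0.04 over all genes). In WT LZ over WT DZ, 3 were above and 6 below (median -0.27, against -0.02). Both neutrophil markers in the table, of 7 in the list, were at 0 in SykY317F LZ, reached 21.5 CPM in 1 SykY317F DZ library and were at or under 3.46 CPM in WT.

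The 8 T cell markers found, of 10, summed to 56.7 to 158 CPM in SykY317F LZ, 91.5 to 224 CPM in SykY317F DZ, 57.6 to 184 CPM in WT LZ and 20.1 to 63.2 CPM in WT DZ, with Icos at 0 in SykY317F LZ. In WT the LZ sums lay mostly above the DZ sums, as for Sh3bp2, with overlap, and in SykY317F the highest sums were in the DZ. SykY317F DZ replicate 2, the library with high Sh3bp2, had a T cell sum of 198 CPM, and SykY317F DZ replicate 4, with the lowest Sh3bp2 of its group, had 224 CPM. The 4 plasma cell markers found, of 5, summed to 310 to 715, 441 to 910, 218 to 573 and 267 to 1228 CPM in SykY317F LZ, SykY317F DZ, WT LZ and WT DZ. Of these, Sdc1 had 0, 10, 5 and 2 raw UMIs in the 4 groups and Jchain 160, 1145, 860 and 2590. The 2 stromal and follicular dendritic markers found, of 6, stayed at or under 71.9 CPM in all 14 libraries. The GC B cell markers, 6 of 7 in the table, summed to 740 to 1142, 1094 to 1380, 719 to 1344 and 1522 to 2061 CPM in the same groups.

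**Figure D3:**
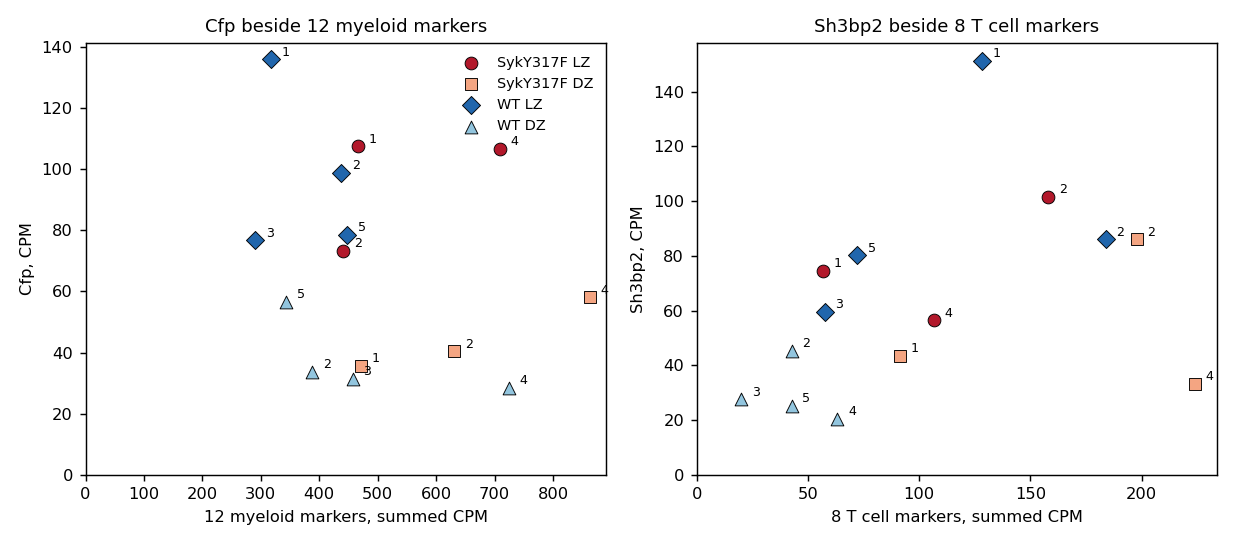
Left, the Cfp level (vertical axis, CPM) against the summed CPM of 12 myeloid markers; right, the Sh3bp2 level against the summed CPM of 8 T cell markers; each point is 1 library, numbered by replicate. Libraries with high Cfp, at 73.4 to 136 CPM, are LZ libraries over much of the myeloid range, and SykY317F DZ replicates 2 and 4 have T cell sums of 198 and 224 CPM with Sh3bp2 at 86.1 and 33.2 CPM. Cybb alone makes up 305 to 583 CPM of the myeloid sum in SykY317F LZ.

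Of 29 listed signalling partners of Sh3bp2, the kinases, phospholipases, adaptors and regulators of its turnover, 22 were tested, and none passed edgeR's test in any of the 5 contrasts, while limma voom called 3 in WT LZ over WT DZ. In the LZ over DZ contrast of SykY317F, 9 were above 0 and 13 below (median -0.24, against -0.04 over all genes), and in that of WT, 12 were above and 10 below (median 0.10, against -0.02). Over all genes 46.7% and 48.3% were above 0 in these contrasts. Of all genes, edgeR called 0.0375% in SykY317F and 0.188% in WT. An unadjusted edgeR p under 0.05 was reached by 1 of the 22 in SykY317F LZ over SykY317F DZ, 2 in WT LZ over WT DZ, 1 in SykY317F over WT in the LZ, 4 in the DZ and 1 for the difference of zone effects. Over all 7999 genes it was reached by 821, 678, 785, 305 and 384 in the same order. DESeq2 called 0 of the 22 in the 5 contrasts, with 5 of them left without an adjusted p in the LZ over DZ contrast of SykY317F and in the LZ contrast of genotypes. The 3 that limma voom called in WT LZ over WT DZ were Abl1, Lat and Lck, all higher in the LZ, beside 3.69% of all genes called by that tool in that contrast. Between genotypes 8 were above 0 in the LZ (median -0.18, against -0.06) and 12 in the DZ (median 0.06, against -0.04). Abl1, a tyrosine kinase that binds the adaptor, had an LZ over DZ value of 0.05 ± 0.41 (log2, SE) in SykY317F and 0.85 ± 0.31 in WT (edgeR adjusted p = 0.376; limma voom gave 0.96 with an adjusted p of 0.0442). Lat, the T cell adaptor that is also among the T cell markers, had -0.74 ± 0.41 in SykY317F and 0.81 ± 0.31 in WT (edgeR adjusted p = 0.417; limma voom gave 1.10 with an adjusted p of 0.0342). Lck, a Src family kinase best known from T cells, had 0.42 ± 0.25 in WT (edgeR adjusted p = 0.679; limma voom gave 0.79 with an adjusted p of 0.0334). Tnks2, a tankyrase that marks Sh3bp2 for turnover, had -0.95 ± 0.71 in SykY317F and -0.94 ± 0.48 in WT (edgeR adjusted p = 0.614). Tnks and Rnf146, of the same turnover route, were too sparse to test, with 0 UMIs of either in the 3 SykY317F LZ libraries, whose UMI totals were the lowest.

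Of 29 complement genes 11 were tested beside properdin, and none passed edgeR's test in any of the 5 contrasts, while limma voom called 2 and DESeq2 called 1. DESeq2 left 7 of the 11 without an adjusted p in the LZ over DZ contrast of SykY317F and in the LZ contrast of genotypes. In the order given for the signalling partners, 3, 2, 1, 3 and 3 of the 11 had an unadjusted edgeR p under 0.05, beside the counts over all genes given there. Both other tools called C1qb, a subunit of C1q, in SykY317F over WT in the DZ, where DESeq2 called 0.025% and limma voom 0.05% of all genes. C1qb had 94 UMIs over the SykY317F DZ libraries and 31 over WT DZ, and its value was 2.47 ± 0.55 (log2, SE; edgeR adjusted p = 0.628), with an adjusted p of 0.0388 in DESeq2 and 0.0365 in limma voom. C3 itself had 3, 41, 19 and 22 UMIs and Cfb, the other part of the alternative convertase, 1, 20, 10 and 21 UMIs over the SykY317F LZ, SykY317F DZ, WT LZ and WT DZ libraries. The UMI sums in this paragraph are raw, over groups that differ in depth and number of libraries. In the LZ over DZ contrast 1 of the 11 was above 0 in SykY317F (median -0.81) and 7 in WT (median 0.16), and between genotypes 3 in the LZ (median -0.39) and 8 in the DZ (median 0.62), beside the medians over all genes given for the signalling partners. The medians include C1qa and C1qc, the other subunits of C1q, which macrophages make, which had 2 and 1 UMIs over the SykY317F LZ libraries, 78 and 63 over SykY317F DZ, 50 and 37 over WT LZ, and 20 and 14 over WT DZ. In WT their LZ over DZ values were 1.37 ± 0.67 and 1.52 ± 0.71 (log2, SE; edgeR adjusted p = 0.597 and 0.567), and Cd59a, which blocks the terminal complement complex, had -1.13 ± 0.42 (edgeR adjusted p = 0.417; limma voom gave -1.40 with an adjusted p of 0.0337).

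The family and partners of Arid3b gave 14 tested genes of 21, and none passed in edgeR, DESeq2 or limma voom in any of the 5 contrasts. DESeq2 left 6 of the 14 without an adjusted p in the LZ over DZ contrast of SykY317F and in the LZ contrast of genotypes. An unadjusted edgeR p under 0.05 was reached by 2, 0, 3, 0 and 1, beside the same counts over all genes. In the LZ over DZ contrast 7 were above 0 in SykY317F (median 0.02) and 5 in WT (median -0.14), and between genotypes 6 in the LZ (median -0.04) and 4 in the DZ (median -0.13), beside the same medians over all genes. Arid2, a subunit of a SWI/SNF chromatin remodeller, had an LZ over DZ value of 1.02 ± 0.57 in WT (log2, SE; edgeR adjusted p = 0.651). Kdm5c, a histone demethylase with the same DNA-binding domain, had -0.79 ± 0.61 (edgeR adjusted p = 0.773) and Btk, the kinase that works with Arid3a, -0.36 ± 0.29 (edgeR adjusted p = 0.786). Arid3a itself was covered by 46, 219, 309 and 408 UMIs over the SykY317F LZ, SykY317F DZ, WT LZ and WT DZ libraries. These are raw sums over groups that differ in depth and number of libraries, so they do not compare levels.

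Over the 14 libraries, the log2 CPM of the 3 genes correlated with Pearson r of 0.71 for Sh3bp2 and Cfp, 0.69 for Sh3bp2 and Arid3b, and 0.73 for Cfp and Arid3b. These points share their library, its depth and its zone, and the values describe a pattern that the choice fixed. After the group means were subtracted r was 0.05, 0.49 and -0.08 in the same order, highest for Sh3bp2 and Arid3b.

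The genes most like each member were taken as the 5 highest correlations of log2 CPM over the 14 libraries among 5296 genes with a mean of at least 20 UMIs. For Sh3bp2 they were Tle3 (r = 0.90), a Groucho corepressor, Cyb561a3 (0.90), a cytochrome b561, Snx11 (0.87), a sorting nexin, Clcf1 (0.87), a cytokine, and Ncf1 (0.87), a subunit of the phagocyte NADPH oxidase. After group means were subtracted their r with Sh3bp2 was 0.67 to 0.80. Their own LZ over DZ values were 0.13 to 0.81 in SykY317F and 0.86 to 1.15 in WT (log2). These genes were chosen for their likeness to Sh3bp2 over the same libraries, so a zone pattern like its own follows from the choice. Their r after group means were subtracted is not independent of that choice either. The same holds for the genes named below for Cfp and Arid3b.

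For Cfp 4 of the 5 are given here, Fmnl3 (r = 0.92), a formin, Sil1 (0.91), an exchange factor of the endoplasmic reticulum chaperone BiP, Syngr2 (0.91), a synaptogyrin, and Ubxn11 (0.90). After group means were subtracted their r was 0.67 to 0.90. Their LZ over DZ values were 0.33 to 0.97 in SykY317F and 0.63 to 1.01 in WT.

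For Arid3b they were Ffar2 (r = 0.87), a receptor for short-chain fatty acids, S1pr3 (0.87), a receptor for sphingosine-1-phosphate, Adpgk (0.87), a glucokinase that uses ADP, Rhof (0.86), a small GTPase, and Stat3 (0.85), a transcription factor of cytokine signalling. After group means were subtracted their r was 0.20 to 0.77, lowest for Ffar2. The Ffar2 level averaged 85.7 CPM in SykY317F LZ, 9.74 CPM in SykY317F DZ, 46.1 CPM in WT LZ and 15.3 CPM in WT DZ, a wider zone contrast than that of Arid3b in both genotypes.

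**Figure D4:**
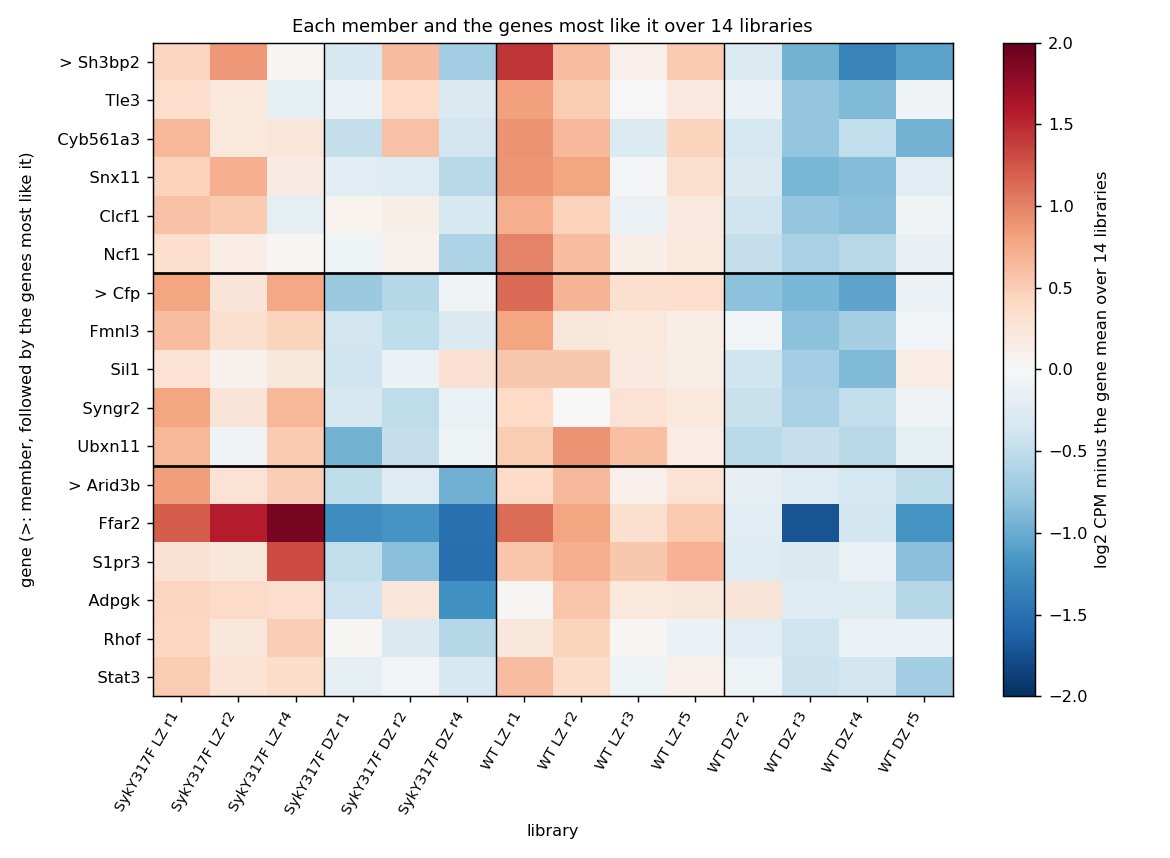
Log2 CPM minus the mean of the gene over the 14 libraries (colour, red above and blue below the mean) for each member and the genes most like it that are named in the text (rows) in each library (columns, by group). The LZ columns are mostly red and the DZ columns mostly blue in all 3 blocks, and Ffar2 spans the widest range, with group means of 85.7 CPM in SykY317F LZ and 9.74 CPM in SykY317F DZ.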

How the data were processed

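Libraries of sorted DZ and LZ cells followed a MARS-seq variant on bead-captured mRNA, per the labels' protocols; the method counts transcript ends by UMI. Per the submitters' processing notes, mm10 was the build and the tools included STAR 2.4.2a and HTSeq, with cutadapt, DESeq and DESeq2. The authors deposited UMI counts, whole and not normalised, for 9969 gene symbols in 14 libraries, and read counts for 11914 symbols, which served as an alternative. The authors also deposited log2 fold changes and p-values, copied here only as their values. The 28 deposited per-sample columns of normalised and regularised values were not used.

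Genes were filtered with filterByExpr (7999 genes, 99.3% of UMIs), TMM-scaled, and given a robust quasi-likelihood fit of 4 group means in edgeR 4.0.16 under R 4.3.3, where the common biological coefficient of variation was 32.3%. P-values were adjusted by Benjamini-Hochberg over all tested genes, with a threshold of 0.05. Levels are CPM with TMM factors, and log2 CPM used a prior count of 2. Alternatives were DESeq2 1.42.0, limma voom (limma 3.58.1), other scalings and filters, fits with only the groups compared, a replicate block, read counts and leaving out each library. The fit was tested on simulated data with known changes. Promoters, motifs and positions came from RefSeq and GENCODE M21.

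The members, the 12 gene lists and the rule for named genes were chosen with earlier results of these data known. The rule names the members, the 5 genes most correlated with each, the 3 genes of each of 3 pathway lists with the smallest p in WT LZ over WT DZ, Syk, Cd83 and Cxcr4. One gene that the rule names is not reported here. Others (Ffar2's levels, C3, Cfb, Arid3a, Tnks, Rnf146, Lck, C1qb) were singled out afterwards.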

Additional observations from a re-analysis of the deposited data

How the results depend on the processing

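No direction of the LZ over DZ values of the 3 genes changed under any alternative. The genes were chosen for that direction and the alternatives reuse the same libraries, so nothing is read from this. For Sh3bp2 in SykY317F the edgeR 95% interval of the LZ over DZ value was -0.43 to 1.35 (log2), which includes 0. Genotype values in the LZ lie near 0 and changed sign in 10 of 75 combinations of gene and alternative, with none passing. For Cfp the value was 0.0056 with DESeq2 size factors, 0.0067 in DESeq2's Wald test, 0.084 in limma voom, 0.020 with at least 20 counts in 3 libraries, 0.015 with only the groups compared and 0.13 without the 2 libraries with the fewest UMIs. Leaving out each library gave -0.15 to 0.17 for Cfp, -0.53 to 0.015 for Sh3bp2 and -0.00144 to 0.30 for Arid3b. The Arid3b LZ over DZ value in SykY317F was 1.38 without the 2 libraries with the fewest UMIs. That alternative and a covariate for the first component of the deviations were added after seeing the data; with the covariate the members' values moved by less than their SE. The cause of these shifts was not tested.

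Counts of genes called depended on the settings. In SykY317F LZ over SykY317F DZ, 3 genes were called, against 9 by library size, 39 by DESeq2, 1 with only the groups compared, 1 with the replicate block, 20 on read counts, 0 without the 2 libraries with the fewest UMIs, 50 with the covariate, and 0 to 10 without each library (10 when SykY317F DZ replicate 2 was left out, 8 for WT DZ replicate 5, 5 for SykY317F LZ replicate 4 and 1 for its replicate 1, with 0 for SykY317F LZ replicate 2 and for SykY317F DZ replicates 1 and 4). In WT LZ over WT DZ, 15 were called, against 84 by DESeq2, 295 by limma voom, 6 with only the groups compared, 0 on read counts, 9 without the 2 libraries with the fewest UMIs, 189 with the covariate, and 1 to 26 without each library (26 when WT LZ replicate 3 was left out, 9 for SykY317F LZ replicate 1 or 2, 7 and 1 for WT LZ replicates 1 and 2, and 6 for WT DZ replicate 3). In SykY317F over WT in the LZ, 0 were called, against 1 by library size, 37 by DESeq2, 54 on read counts, 52 with the covariate, and 0 to 5 without each library (5 for WT DZ replicate 5, 3 and 1 for WT LZ replicates 3 and 2). In the DZ, 0 were called, against 2 by DESeq2, 4 by limma voom and 1 with the covariate.

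Scaling by library size moved the median of all genes to -0.19 in SykY317F LZ over SykY317F DZ, -0.16 in SykY317F over WT in the LZ and -0.19 in the difference of zone effects. Of the other named genes, 13 alternatives reversed a value of SykY317F LZ over SykY317F DZ: Abl1 to -0.11 by library size, -0.21 on read counts and -0.20 to 0.19 without each library, Cd59a to 0.041 in limma voom, 0.030 without the 2 libraries with the fewest UMIs and -0.36 to 0.10 without each library, Arid2 to -0.40, -2.16 and -1.74 to 0.92 in the same order, Cxcr4 to -0.17 without the 2 libraries and -0.21 to 0.40 without each library, and Btk to -0.12 without the 2 libraries. For named genes other than the members, the alternatives were compared in the LZ over DZ contrasts only. There a named gene gained a call in 8 combinations. Cd83 gained it in DESeq2 (1.06 in SykY317F and 0.94 in WT), in limma voom (0.90 in WT) and with the covariate (1.09 in SykY317F and 0.91 in WT). Abl1 (0.96), Lat (1.10) and Cd59a (-1.40) gained it in limma voom in WT. Outside those contrasts, DESeq2 called Cxcr4 higher in SykY317F LZ than in WT LZ (edgeR log2 1.31 ± 0.33, SE, edgeR adjusted p = 0.154). DESeq2 or limma voom also called Lck and C1qb, which the rule for named genes does not hold.

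Replicate numbers occur in several groups. The deviations of same-numbered LZ and DZ libraries correlated at 0.13, 0.21 and -0.07 in SykY317F (replicates 1, 2 and 4). In WT they correlated at 0.15, 0.08 and -0.56 (replicates 2, 3 and 5). Between SykY317F and WT, same-numbered libraries correlated at 0.18 and 0.18 in the LZ (replicates 1 and 2). In the DZ the values were -0.02 and -0.17 (replicates 2 and 4). The values differed in sign, and the numbers were not taken to pair libraries. With the replicate block the Sh3bp2 genotype value in the DZ was 0.60 ± 0.37 (SE) and its difference of zone effects -0.96 ± 0.50, and 1, 14, 0, 0 and 0 genes were called in the 5 contrasts. Depth limits the SykY317F LZ values most, where 13.9% to 22.8% of genes had 0 UMIs.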
